A study of Bos taurus with 138 samples.

Results

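The comparison described here set the mRNA found with polysomes in bovine 2-cell embryos beside the mRNA of whole 2-cell embryos. Its members were 9 of the 138 samples of the series. Of these, 6 were sucrose gradient fractions F8, F9 and F10 of the 2-cell gradients A and B, and 3 were 2-cell transcriptomes A, B and C. Adding up the counts of these 3 fractions in each gradient gave 2 polysome pools, and each gene was compared between the 2 pools and the 3 transcriptomes after scaling to library size.

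In a sucrose gradient, an mRNA that carries more ribosomes sediments further. Free RNA stays near the top, mRNA with a single ribosome lies below it, and mRNA held by many ribosomes, the polysomes, lies near the bottom. The cow embryo starts its main wave of transcription only after the 2-cell stage, so that most mRNA of a 2-cell embryo was stored in the oocyte. Control of such maternal mRNA acts largely through the length of its poly(A) tail, its storage in complexes with proteins and its entry into polysomes.

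The series covered GV oocytes, MII oocytes, 2-cell and 8-cell embryos, morulae and blastocysts, each with 2 gradients of 10 fractions and 3 transcriptomes. The embryos were Bos taurus, fertilized with semen of 1 bull and cultured in vitro, and were pooled before lysis. Fractionated embryos were treated with cycloheximide, which stalls ribosomes on mRNA, and the zona pellucida was digested away. Per the study's methods, transcriptome samples were smaller pools from the same batches, and a number of embryos stood behind every library, so that the p-values measure the spread between such pools. The lysate of the gradients was cleared by centrifugation before it was loaded, which the transcriptome pools are not said to have gone through, so that what the clearing took away and what polysomes lack cannot be told apart. Neither group carried a genetic change or a treatment that set it apart as a condition, since both sample the same stage in different ways. All libraries were made with a Smart-seq kit, which starts from the poly(A) tail of an mRNA, and then cut and tagged.

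The deposited values are expected counts per gene symbol. Totals of the 2-cell F8, F9 and F10 libraries lay between 9155968 and 11544810 counts, and those of all 23 2-cell libraries between 8846179 and 12234878. Spearman's rho across genes was 0.955 between the 2 polysome pools, from 0.984 to 0.988 between transcriptomes and from 0.704 to 0.748 between a pool and a transcriptome. Genes are not independent replicates, and these values only describe the libraries. All 12 oocyte markers were present in both kinds of library, with summed levels of 18869 to 21837 CPM (counts relative to the library size, here with TMM scaling among the 23 2-cell libraries) in the transcriptomes and 18188 to 21290 CPM in F8 to F10. On the scale of the model of polysome pools and transcriptomes, they summed to 19315 and 19280 CPM in the pools and 14754, 13518 and 13200 CPM in the transcriptomes. Sums of other cell types are on the scale of the 2-cell libraries. Cumulus and granulosa markers summed to 747 to 798 CPM in the transcriptomes, where 7 of 16 genes reached 1 CPM, and to 892 to 1437 CPM in F8 to F10. The higher sum was carried by STAR, a steroidogenic factor, at 332 to 401 and 614 to 1231 CPM, while HAS2 and VCAN, markers of the expanded cumulus, had 141 to 163 and 9.51 to 126 CPM and 87.6 to 110.3 and 9.01 to 36.4 CPM. In the test below 2 of 14 such markers were called higher in polysomes (STAR and AMH) and 3 lower (PTGS2, PTX3 and HSD3B1). Trophectoderm markers summed to 103.0 to 153 and 94.7 to 189 CPM, blood and immune markers to 20.9 to 32.5 and 26.5 to 43.2 CPM, sperm markers to 32.9 to 43.4 and 7.69 to 17.97 CPM, and fibroblast markers to 3.27 to 5.81 and 0.337 to 11.1 CPM. The part of such cells in the differences below was not tested.

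The polysome pools differed from the transcriptomes at a large share of genes. Of 14612 genes tested, 4166 (28.5%) were called higher in polysomes and 3112 (21.3%) lower, at an edgeR adjusted p below 0.05 and a fold change above 2. Among the tested genes, 1147 were at 0 in both pools, of which 233 were called lower. Another 791 were at 0 in all 3 transcriptomes, of which 97 were called higher. The size of the fold could not be measured in these genes. With a fold change above 8, 2434 genes (16.7%) were called higher and 1268 (8.68%) lower. Both pools lay above all 3 transcriptomes at 5897 genes (40.4%) and below all 3 at 4963 (34%), and 4064 of the called higher and 3075 of the called lower genes were among these. The median log2 difference over all genes was 0.18. The zero of this scale depends on the scaling, and the other scalings tried moved the differences by a median of -0.08, -0.17 and -0.42 on the log2 scale, and turned the direction of 0 called genes. Since called genes had to differ more than 2-fold, shifts of this size could not turn them. A share of mRNA, not an amount, was measured, so that fewer copies in polysomes and more copies of other mRNAs cannot be told apart.

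**Figure D1:**
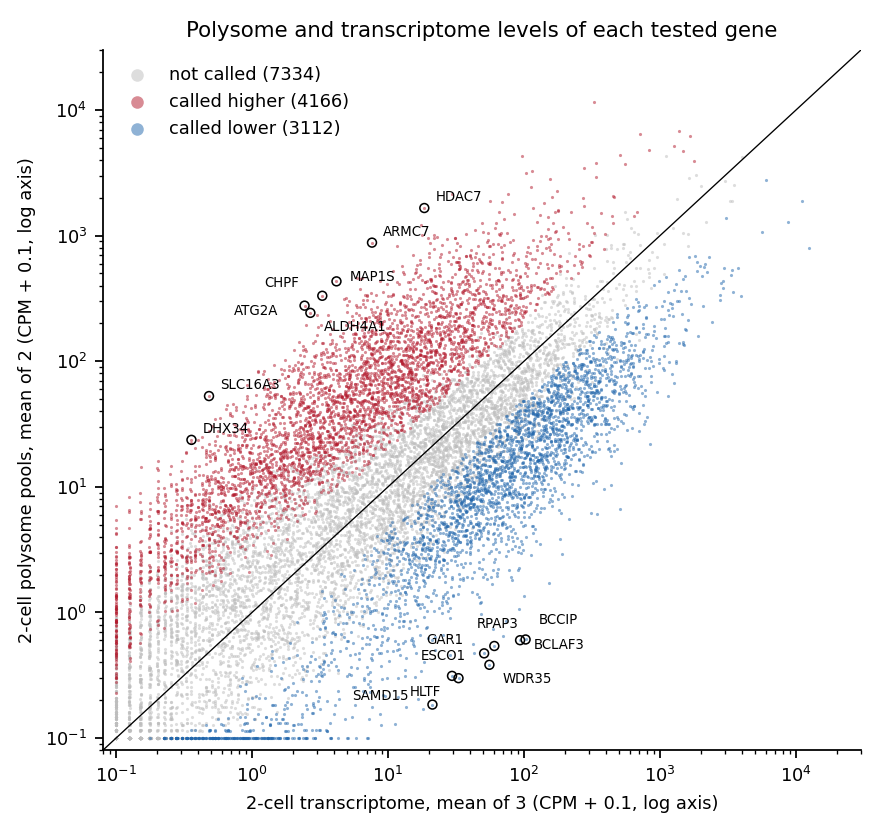
Mean level of each of the 14612 tested genes in the 3 transcriptomes of 2-cell embryos (x axis, CPM + 0.1, log scale) and in the 2 polysome pools (y axis, same unit). Red points are the 4166 genes called higher in polysomes, blue points the 3112 called lower, grey points the rest, and the line marks equal levels. Circles are the 8 genes with the largest difference in each direction, among called genes without overlap that reached 20 CPM in the higher group.

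Genes were then ranked among those called, without overlap between pools and transcriptomes and with at least 20 CPM in the higher group. Furthest above the transcriptome were SLC16A3, ATG2A, ARMC7, MAP1S, CHPF, ALDH4A1, HDAC7 and DHX34. Values are given for pools A and B and then for transcriptomes A, B and C throughout. HDAC7, a histone deacetylase, had 1738 and 1582 CPM in the pools and 17.9, 14.5 and 22.9 CPM in the transcriptomes, which made it 90.2-fold higher (log2 difference 6.49 ± 0.44 (SE), edgeR adjusted p = 1.01e-10). ATG2A, a lipid transfer protein of the growing autophagosome, had 286 and 268 CPM in the pools and 2.05, 2.32 and 2.63 CPM in the transcriptomes (log2 difference 6.89 ± 0.45 (SE), edgeR adjusted p = 9.53e-11). Both genes were thus low in all 3 transcriptomes and high in both polysome pools. ARMC7, which codes for a protein with armadillo repeats, had 850.4 and 910.0 CPM against 6.62, 6.79 and 9.18 CPM (log2 difference 6.87 ± 0.49 (SE), edgeR adjusted p = 1.86e-10). MAP1S, a microtubule-binding protein, had 444 and 421 CPM against 4.79, 2.64 and 4.81 CPM (log2 difference 6.72 ± 0.77 (SE), edgeR adjusted p = 1.34e-07). CHPF, which helps to build chondroitin chains, had 360.3 and 304 CPM against 2.21, 3.6 and 3.76 CPM (log2 difference 6.70 ± 0.78 (SE), edgeR adjusted p = 1.71e-07). In these 3 genes the lower pool was above the highest transcriptome by far, and the pools lay close to each other. ALDH4A1, an enzyme of proline breakdown in mitochondria, was 93.6-fold higher. SLC16A3, a lactate transporter, had 26.8 and 78.8 CPM against 0.152, 0.32 and 0.677 CPM, and DHX34, an RNA helicase of nonsense-mediated decay, 26 and 21.2 CPM against 0.457, 0.32 and 0 CPM. These last genes had the widest errors of the 8, up to an SE of 1.62 for DHX34.

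By the same rule, the genes furthest below the transcriptome were SAMD15, BCCIP, WDR35, BCLAF3, HLTF, GAR1, RPAP3 and ESCO1. BCCIP, a partner of BRCA2, had 0.25 and 0.769 CPM in the pools and 108, 102 and 98.7 CPM in the transcriptomes (log2 difference -7.65 ± 0.65 (SE), edgeR adjusted p = 2.05e-09). GAR1, a core protein of the particles that modify ribosomal RNA, had 0.222 and 0.523 CPM against 51.3, 50.9 and 50.3 CPM (log2 difference -7.07 ± 1.02 (SE), edgeR adjusted p = 3.68e-06). RPAP3, a co-chaperone in the assembly of RNA polymerase II, had 0.667 and 0.215 CPM against 72.3, 59.5 and 49.5 CPM (log2 difference -7.07 ± 0.85 (SE), edgeR adjusted p = 2.82e-07). In each of them the transcriptomes lay close together while neither pool reached 1 CPM. ESCO1, which acetylates cohesin, had 0.334 and 0.0923 CPM against 27.5, 40.3 and 20.6 CPM, and HLTF, a remodeller of stalled replication forks, 0 and 0.4 CPM against 31.9, 34.4 and 32.5 CPM. WDR35, a part of the transport machinery of cilia, had 0.167 and 0.4 CPM against 75.3, 55.6 and 35.9 CPM, BCLAF3 had 0.111 and 0.892 CPM against 106, 104 and 71.2 CPM and SAMD15 0.139 and 0.0308 CPM against 22.6, 23.5 and 17.3 CPM. Differences of these 5 genes lay between -7.83 and -7.05 on the log2 scale. The pool values rest on few counts: 5 and 1 for SAMD15, 9 and 25 for BCCIP, in pools of 32650295 and 29880279 counts.

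**Figure D2:**
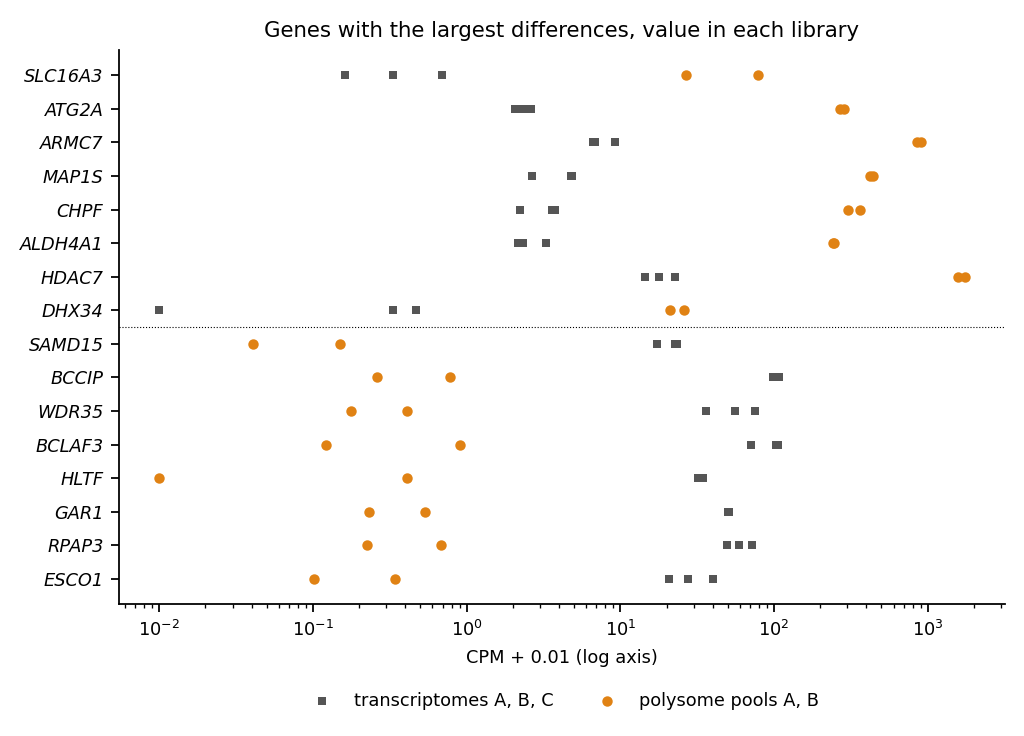
Level (x axis, CPM + 0.01, log scale) in each polysome pool (orange circles, A and B) and each transcriptome (grey squares, A, B and C) of the 16 genes with the largest differences among those that reached 20 CPM, 8 higher (above the dotted line) and 8 lower in polysomes. Genes were taken only if pools and transcriptomes did not overlap, so that the gap between them was fixed by the choice.

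Functional groups were then described by how many members were called, beside 28.5% higher and 21.3% lower over all genes. Some of these genes passed the filter on low counts through libraries of other stages. In a model of the 2-cell libraries alone, 4614 of 12096 genes were called higher and 3884 lower, larger shares in both directions. Beside those, 35.7% higher for cytosolic ribosomal proteins and 33.3% lower for the nuclear pore and transport do not stand out. Medians of the log2 difference ran from -2.39 for genes of the mitochondrial genome to 1.95 for the subcortical maternal complex and its partners, beside 0.18 for all genes. With genes that were 0 in a whole group set to the difference that 3 counts per library would give, the median of all genes was 0.09, and no median of a group of 27 moved past 0 except that of the RAB and ARF genes, from -0.07 to 0.00. No group was tested against the others, so that a share far from the background is a description.

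**Figure D3:**
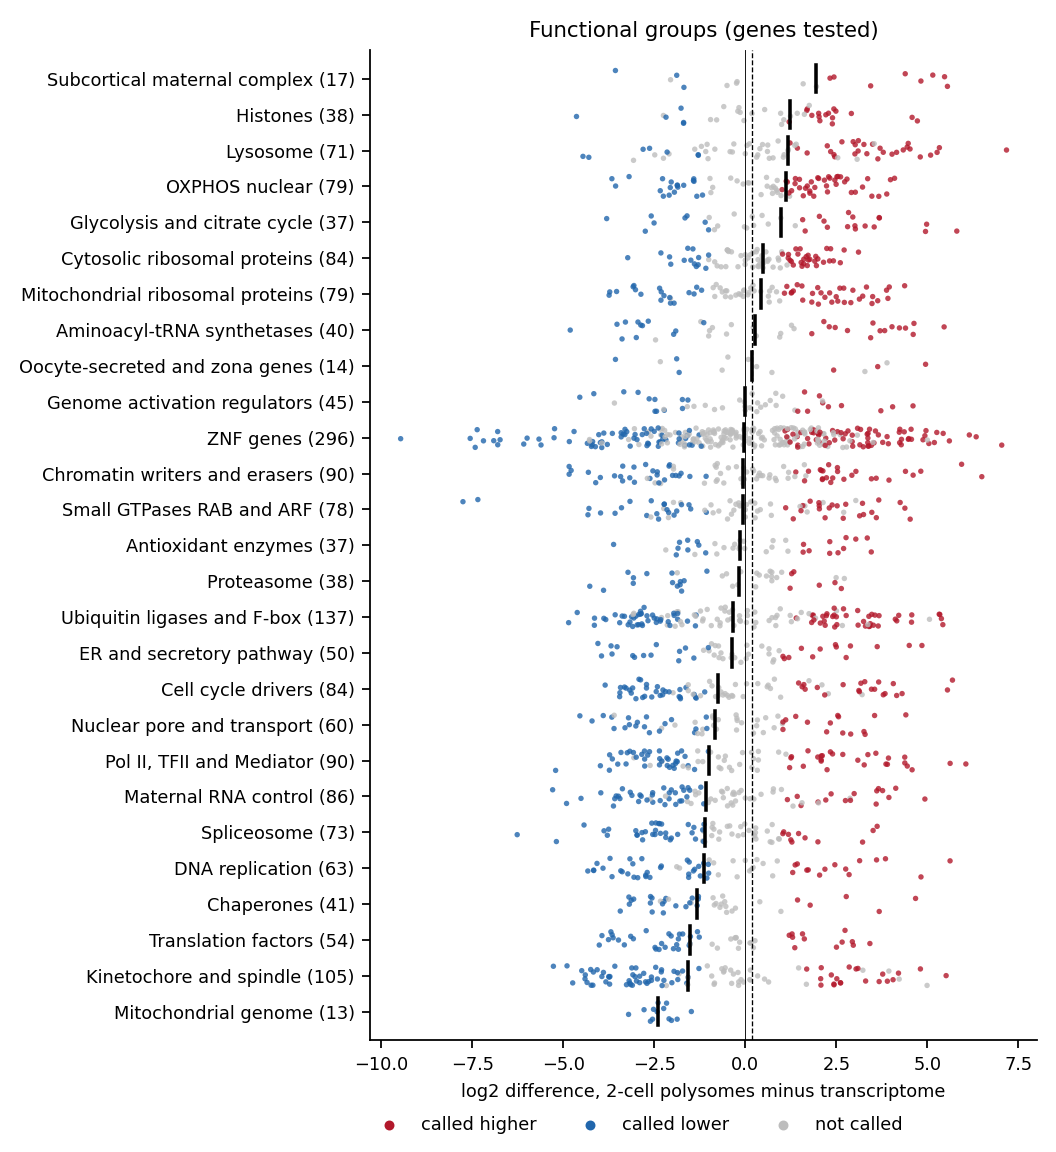
Log2 difference between 2-cell polysomes and transcriptome (x axis) of each member of 27 functional groups (y axis, number of genes tested in brackets), with called higher genes in red, called lower genes in blue and others in grey. Thick black bars are group medians and the dashed line is the median of all 14612 genes, and every group except the mitochondrial genome holds both red and blue genes.

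The mRNAs of the subcortical maternal complex and of related oocyte factors, which support the first cleavages, had more members called higher than lower in polysomes. Of this group 8 of 17 genes tested (47.1%) were called higher in polysomes and 3 (17.6%) lower, with a median log2 difference of 1.95. PADI6, which is needed for the lattices of the egg cytoplasm, had 4763 and 3880 CPM in the pools and 93.6, 89.5 and 109 CPM in the transcriptomes, 44.4-fold higher (log2 difference 5.47 ± 0.52 (SE), edgeR adjusted p = 8.03e-09). NLRP5, a founding member of the complex, had 2033 and 2259 CPM against 74.5, 70.3 and 82.8 CPM (log2 difference 4.82 ± 0.94 (SE), edgeR adjusted p = 0.00015). NLRP8, from the same gene family, had 10722 and 12650 CPM against 344, 289 and 356 CPM (log2 difference 5.15 ± 0.64 (SE), edgeR adjusted p = 4.06e-07). TLE6 and OOEP, further subunits, had 567 and 623 CPM against 52, 54.5 and 57.8 CPM and 1192 and 918 CPM against 222, 174 and 235 CPM. NLRP13 (5.55), the oocyte transcription factor NOBOX (4.39) and ZAR1, which binds stored mRNA (2.44), were also called higher on the log2 scale. KHDC3L, another subunit, had 2176 and 6363 CPM against 1143, 1116 and 1047 CPM and was not called (log2 difference 1.95 ± 0.92 (SE), edgeR adjusted p = 0.0778), and its pools lay far apart. The 3 genes called lower were DPPA3, which protects maternal DNA methylation, at 379.8 and 284 CPM against 4174, 4825 and 2788 CPM (log2 difference -3.57 ± 0.41 (SE), edgeR adjusted p = 1.56e-07), NLRP14 (-1.69) and the transcription factor LHX8 (-1.88). NLRP9, ZAR1L, NPM2, NPM3 and FIGLA were not called, although NPM2 was called lower under 4 of the alternative settings. Leaving out a library ended the call for NLRP14 (-1.71 without pool A, -1.68 without pool B, -1.71 without transcriptome A, -1.51 without transcriptome B, -1.81 without transcriptome C) and LHX8 (-1.83 without pool A, -1.95 without pool B, -1.79 without transcriptome C), given as log2 differences.

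Genes that the oocyte secretes or lays down in the zona pellucida were split. Of 14 tested, 3 were called higher and 3 lower, and the group's median of 0.20 turned to -0.23 under 1 of the other scalings. ASTL, the protease that hardens the zona after fertilization, had 3206 and 3140 CPM in the pools and 99.9, 105 and 103 CPM in the transcriptomes (log2 difference 4.95 ± 0.67 (SE), edgeR adjusted p = 1.31e-06). ZP3, a zona glycoprotein, had 3732 and 3182 CPM against 309.9, 226 and 299 CPM (log2 difference 3.64 ± 0.42 (SE), edgeR adjusted p = 1.56e-07). ZP2, which ASTL cleaves, had 624 and 509 CPM against 2456, 2227 and 1594 CPM (log2 difference -1.88 ± 0.71 (SE), edgeR adjusted p = 0.0293), and ZP4 had 3042 and 3026 CPM against 1897, 1683 and 1907 CPM and was not called. The zona genes thus differed in direction although they code for parts of 1 coat. BMP15, a growth factor of the oocyte, had 3893 and 4540 CPM against 4399, 3870 and 3684 CPM (log2 difference 0.08 ± 0.78 (SE), edgeR adjusted p = 0.968), and its partner GDF9 993 and 1070 CPM against 1542, 1766 and 1499 CPM (log2 difference -0.64 ± 0.95 (SE), edgeR adjusted p = 0.601). OOSP2 had 227 and 184 CPM against 2357, 2245 and 2679 CPM and WEE2, a kinase of the oocyte, 290.2 and 318 CPM against 1055, 969.7 and 1189 CPM, and both were called lower. Leaving out a library ended the call for ZP2 (-2.05 without pool A, -1.75 without pool B, -1.75 without transcriptome A, -1.84 without transcriptome B), OOSP2 (-3.73 without pool A, -3.43 without pool B) and WEE2 (-1.76 without pool A), given as log2 differences.

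Genes that control stored mRNA leaned below the transcriptome. Among them 16 of 86 genes tested (18.6%) were called higher in polysomes and 36 (41.9%) lower, with a median of -1.08. BTG4, which brings the CCR4-NOT deadenylase to maternal mRNA, had 1529 and 2274 CPM in the pools and 11267, 11133 and 10855 CPM in the transcriptomes (log2 difference -2.54 ± 0.99 (SE), edgeR adjusted p = 0.0359). PAIP1, a partner of the poly(A)-binding protein, had 838 and 760.0 CPM against 16010, 12792 and 8680 CPM (log2 difference -3.97 ± 0.46 (SE), edgeR adjusted p = 1.77e-07). PAPOLG, a poly(A) polymerase, had 371 and 246 CPM against 3333, 2723 and 2197 CPM (log2 difference -3.16 ± 0.32 (SE), edgeR adjusted p = 2.07e-08). Of 11 CCR4-NOT subunits, 5 were called lower, namely CNOT2 (-2.93), CNOT4 (-1.92), CNOT6 (-4.51), CNOT6L (-2.34) and CNOT7 (-2.03), and CNOT11 (1.53) was called higher. FXR1, an RNA-binding protein of the fragile X family, had 23.8 and 22.1 CPM against 279.7, 248 and 186 CPM. ZFP36L2, which marks mRNA for decay and is needed in the oocyte, stood on the other side with 106 and 139 CPM against 3.12, 3.68 and 5.26 CPM (log2 difference 4.93 ± 0.40 (SE), edgeR adjusted p = 9.46e-10). SYMPK, a scaffold of the cleavage and polyadenylation complex, had 108 and 119 CPM against 7.46, 7.35 and 7.37 CPM (log2 difference 3.94 ± 0.44 (SE), edgeR adjusted p = 1e-07). PABPC1L, the poly(A)-binding protein of the oocyte (3.66), and EDC4, which activates decapping (4.13), were called higher too. With a library left out, the call was lost for BTG4 (-2.29 without pool A, -2.86 without pool B, -2.53 without transcriptome A, -2.54 without transcriptome B, -2.56 without transcriptome C), given as log2 differences.

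All 13 protein-coding genes of the mitochondrial genome were lower in the polysome pools, and in each of them both pools lay below all 3 transcriptomes. These mRNAs are made and translated inside mitochondria, by ribosomes of their own. Their log2 differences had a median of -2.39. COX1, a core subunit of complex IV, had 703 and 269 CPM in the pools and 3174, 3473 and 3367 CPM in the transcriptomes (log2 difference -2.78 ± 0.49 (SE), edgeR adjusted p = 4.29e-05). ND4, a subunit of complex I, had 122.8 and 90.8 CPM against 555, 716 and 567 CPM (log2 difference -2.52 ± 0.37 (SE), edgeR adjusted p = 3.86e-06). ND4L had 4.31 and 3.75 CPM against 24.6, 42.2 and 44.9 CPM and COX3 630.0 and 329.7 CPM against 1558, 2077 and 2512 CPM. In COX1 pool A was well above pool B, and even its higher pool stayed below the lowest transcriptome. Without pool B, the test no longer called COX3 (-1.71) and ND5 (-1.38), given as log2 differences.

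Subunits of the respiratory chain that are encoded in the nucleus stood on the other side. For these OXPHOS genes 40 of 79 genes tested (50.6%) were called higher in polysomes and 19 (24.1%) lower, with a median of 1.12. The median was 0.93 for 38 genes of complex I, 1.12 for 4 of complex II, 1.49 for 9 of complex III, 1.77 for 10 of complex IV and 0.88 for 17 of the ATP synthase. NDUFV1, which binds NADH in complex I, had 174 and 129 CPM in the pools and 9.59, 7.67 and 9.25 CPM in the transcriptomes (log2 difference 4.10 ± 0.29 (SE), edgeR adjusted p = 1.84e-10). NDUFS7, of the same complex, had 209 and 130.5 CPM against 11.4, 10.4 and 12.7 CPM (log2 difference 3.88 ± 0.30 (SE), edgeR adjusted p = 4.53e-10), and NDUFA8 had 882 and 930.4 CPM against 141, 108 and 143 CPM. In all 3 the pools were clear of the transcriptomes. Called lower were CYCS, the electron carrier cytochrome c, with 25.5 and 14.6 CPM against 259, 271 and 232 CPM (log2 difference -3.66 ± 0.46 (SE), edgeR adjusted p = 4.33e-07), and ATP5PB, of the stalk of the ATP synthase, with 37.7 and 26.9 CPM against 323, 291 and 271 CPM (log2 difference -3.19 ± 0.27 (SE), edgeR adjusted p = 1.6e-09). COX7A2L, which links respiratory complexes to each other, was also lower (-1.41 ± 0.46 (SE)). Leaving out a library ended the call for COX7A2L (-1.35 without pool A, -1.48 without pool B), given as log2 differences.

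Mitochondrial ribosomal proteins also had more genes above than below. Here 33 of 79 genes tested (41.8%) were called higher in polysomes and 18 (22.8%) lower, and the median of 0.42 was -0.001 under another scaling. MRPL37 had 3696 and 3848 CPM against 279.9, 299 and 436 CPM (log2 difference 3.48 ± 0.23 (SE), edgeR adjusted p = 1.01e-10) and MRPL12 35.4 and 48.9 CPM against 2.81, 2.24 and 3.08 CPM (log2 difference 3.95 ± 0.28 (SE), edgeR adjusted p = 2.06e-10). MRPS10 had 31.4 and 35.6 CPM against 421, 424 and 320.1 CPM (log2 difference -3.53 ± 0.29 (SE), edgeR adjusted p = 1.42e-09), and MRPL42 was lower as well (-3.08 ± 0.37 (SE)). MRPL20 had 791 and 918 CPM against 557, 433 and 636 CPM and was not called. Of 17 tRNA synthetases of mitochondria, 8 were called higher and 2 lower (median 1.34), and of 20 cytosolic ones 6 were called higher and 8 lower (median -0.71). VARS1, which charges tRNA with valine, had 272 and 241 CPM against 11.3, 11.9 and 13.3 CPM, and LARS1, which charges it with leucine, had 4.25 and 4.12 CPM against 127, 134 and 91.3 CPM. Both are cytosolic enzymes, and their log2 differences were 4.40 ± 0.38 (SE) and -4.81 ± 0.35 (SE). FARSA (4.23) was called higher, and AIMP1 (-3.29), RARS1 (-2.82) and RARS2 (-2.99) were called lower.

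Of the genes for cytosolic ribosomal proteins 40 were not called. In all 30 of 84 genes tested (35.7%) were called higher in polysomes and 14 (16.7%) lower, with a median of 0.48. RPL13 had 295 and 302 CPM in the pools and 36.6, 29.5 and 37.8 CPM in the transcriptomes (log2 difference 3.11 ± 0.33 (SE), edgeR adjusted p = 4.35e-08). RPL5, a partner of 5S rRNA, had 31.6 and 34.8 CPM against 365, 297 and 271 CPM (log2 difference -3.23 ± 0.35 (SE), edgeR adjusted p = 6.99e-08), and RPL4 was lower too (-1.68 ± 0.24 (SE)). RPSA had 273 and 350.5 CPM against 535, 443 and 309.7 CPM and was not called (log2 difference -0.46 ± 0.27 (SE), edgeR adjusted p = 0.155). Ribosomal protein genes have many near-identical copies in the genome, and how their reads were shared out between copies is uncertain.

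Translation factors were mostly below the transcriptome. Of them 12 of 54 genes tested (22.2%) were called higher in polysomes and 29 (53.7%) lower, with a median of -1.51. The cap-binding protein EIF4E had 130.3 and 139 CPM in the pools and 1461, 1617 and 1437 CPM in the transcriptomes (log2 difference -3.48 ± 0.28 (SE), edgeR adjusted p = 9.58e-10). EIF4A2, the helicase of the same complex, had 28.8 and 28.5 CPM against 515, 539.9 and 331 CPM (log2 difference -4.01 ± 0.29 (SE), edgeR adjusted p = 2e-10), and EIF1, which guards the choice of start codon, 656 and 707 CPM against 1717, 1524 and 1668 CPM. Of 12 subunits of eIF3, 8 were called lower and 3 higher (median -2.00), and of 8 subunits of eIF2 and eIF2B, 5 were called lower and 2 higher. EEF2, which moves the ribosome along the mRNA, stood above with 145 and 141 CPM against 15.4, 14.5 and 10 CPM (log2 difference 3.42 ± 0.31 (SE), edgeR adjusted p = 5.19e-09), as did EIF6 with 208 and 213 CPM against 34.6, 32.1 and 27.8 CPM (log2 difference 2.74 ± 0.23 (SE), edgeR adjusted p = 1.77e-09).

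Chaperones and the proteasome leaned the same way. For chaperones 5 of 41 genes tested (12.2%) were called higher in polysomes and 20 (48.8%) lower, with a median of -1.32, and for the proteasome 6 of 38 genes tested (15.8%) were called higher in polysomes and 14 (36.8%) lower, with a median of -0.17. HSP90AA1 had 140.4 and 134 CPM in the pools and 1893, 1562 and 987 CPM in the transcriptomes (log2 difference -3.43 ± 0.34 (SE), edgeR adjusted p = 1.73e-08), HSPA8 247 and 232 CPM against 1832, 1479 and 1062 CPM, and CCT8, of the ring-shaped CCT chaperonin, 157 and 206 CPM against 1851, 1489 and 1212 CPM (log2 difference -3.06 ± 0.27 (SE), edgeR adjusted p = 2.47e-09). All 8 CCT genes lay below the 3 transcriptomes in both pools, and 3 of them were called. HSPA1A, the heat-inducible HSP70, was higher with 1081 and 1445 CPM against 53.4, 50.0 and 44.9 CPM (log2 difference 4.67 ± 0.58 (SE), edgeR adjusted p = 4.31e-07), although near-identical copies make its counts uncertain. TRAP1, the HSP90 of mitochondria, was higher as well (3.68 ± 0.46 (SE)). In the proteasome, the catalytic subunit PSMB5 had 514 and 452 CPM against 96.5, 80.3 and 86 CPM (log2 difference 2.46 ± 0.21 (SE), edgeR adjusted p = 2.05e-09) and the ATPase PSMC6 11.9 and 7.11 CPM against 164, 138 and 122 CPM (log2 difference -3.89 ± 0.38 (SE), edgeR adjusted p = 1.21e-08). PSMD13 (2.64) was called higher, and PSMD12 (-3.07) and PSMA5 (-1.78) lower. Among ubiquitin ligases, F-box proteins and ubiquitin proteases 41 of 137 genes tested (29.9%) were called higher in polysomes and 42 (30.7%) lower, with a median of -0.35. USP11 had 619.5 and 607 CPM against 32.3, 28 and 39 CPM and USP15 9.62 and 17.2 CPM against 234, 260.2 and 216 CPM, which placed these related proteases 4.21 and -4.14 from the transcriptome on the log2 scale. USP22 (3.56) was called higher, and SKP1 (-3.09), the adaptor of SCF ligases, lower.

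The drivers of the cell cycle were divided between the sides. Among them 21 of 84 genes tested (25%) were called higher in polysomes and 33 (39.3%) lower, with a median of -0.74. PTTG1, the securin that holds separase back, had 1280 and 1276 CPM in the pools and 8542, 7577 and 9929 CPM in the transcriptomes (log2 difference -2.76 ± 0.53 (SE), edgeR adjusted p = 0.00012). AURKA had 2751 and 2849 CPM against 6042, 5791 and 6353 CPM (log2 difference -1.11 ± 0.40 (SE), edgeR adjusted p = 0.0228), CHEK1, the checkpoint kinase, 22.7 and 26.3 CPM against 278, 273 and 240.1 CPM (log2 difference -3.43 ± 0.32 (SE), edgeR adjusted p = 6.44e-09), and CDK7 37.2 and 49.1 CPM against 735, 657 and 472 CPM. CDK1 (-2.45) and CCNB1 (-1.40), which together drive entry into mitosis, were called lower, as were the checkpoint genes MAD2L1 (-3.13) and BUB1B (-2.88). CCNB2 was not called (-0.74 ± 0.28 (SE)). Called higher were UBE2S, which extends ubiquitin chains for the anaphase-promoting complex, with 889 and 943 CPM against 79.5, 64.2 and 105 CPM (log2 difference 3.46 ± 0.29 (SE), edgeR adjusted p = 1.93e-09), and MAD2L2 with 4319 and 4524 CPM against 505, 519 and 504 CPM (log2 difference 3.12 ± 0.25 (SE), edgeR adjusted p = 9.58e-10). PLK1 (3.84), PKMYT1 (5.69), which inhibits CDK1, CDC20 (1.64) and MOS (3.17), the kinase of egg arrest, were higher too. Of 14 subunits of the anaphase-promoting complex, 8 were called lower and 2 higher, of which ANAPC2 had 174 and 189.9 CPM against 3.35, 3.52 and 4.74 CPM. FBXO5, which inhibits that complex, had 138 and 128 CPM against 1115, 994 and 1093 CPM (log2 difference -3.00 ± 0.46 (SE), edgeR adjusted p = 7.39e-06). Without 1 library, the test no longer called AURKA (-1.10 without pool A, -1.15 without pool B) and BUB1B (-2.36 without pool B), given as log2 differences.

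Genes of the kinetochore, the spindle and chromosome structure gave the largest share of lower calls after the mitochondrial genome, translation factors and DNA replication. For them 21 of 105 genes tested (20%) were called higher in polysomes and 52 (49.5%) lower, with a median of -1.58. SMC4, of condensin, had 17.1 and 12.7 CPM in the pools and 259.7, 317 and 238 CPM in the transcriptomes (log2 difference -4.18 ± 0.34 (SE), edgeR adjusted p = 8.57e-10), and RAD21, of cohesin, 11.4 and 15.4 CPM against 247, 278 and 199 CPM (log2 difference -4.17 ± 0.34 (SE), edgeR adjusted p = 9.46e-10). PRC1, which bundles microtubules of the central spindle, had 584 and 606 CPM against 2307, 2236 and 1943 CPM. CENPF, a protein of the outer kinetochore, had 182 and 135 CPM against 2004, 2183 and 1507 CPM (log2 difference -3.58 ± 0.36 (SE), edgeR adjusted p = 1.77e-08). TACC3, which stabilizes the spindle, ran the other way with 3997 and 5546 CPM against 653, 687 and 1167 CPM (log2 difference 2.51 ± 0.28 (SE), edgeR adjusted p = 9.79e-08). TUBG1, the gamma-tubulin that starts microtubules, had 823 and 621 CPM against 109, 59.6 and 85.4 CPM (log2 difference 3.09 ± 0.29 (SE), edgeR adjusted p = 7.8e-09), and its partner TUBGCP2 was higher as well (4.21 ± 0.46 (SE)).

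DNA replication genes lay on both sides. In all 15 of 63 genes tested (23.8%) were called higher in polysomes and 33 (52.4%) lower, with a median of -1.14. Of 6 subunits of the origin recognition complex, ORC2 (-3.06), ORC3 (-3.23), ORC4 (-4.16), ORC5 (-4.07) and ORC6 (-2.31) were called lower and ORC1 was not called (-0.22 ± 0.46 (SE)). ORC5 had 61.8 and 51.2 CPM in the pools and 1019, 1017 and 814 CPM in the transcriptomes (log2 difference -4.07 ± 0.55 (SE), edgeR adjusted p = 1.25e-06). Of the helicase subunits MCM2 to MCM7, MCM3 (1.69), MCM5 (3.85) and MCM7 (2.04) were called higher and MCM6 (-3.66) lower. MCM5 had 646 and 563 CPM against 44.6, 38.3 and 42.9 CPM and MCM6 70.2 and 65.5 CPM against 1027, 886 and 659 CPM, and so subunits of 1 ring lay on opposite sides with no overlap between pools and transcriptomes. CDT1, which loads this helicase, had 234 and 253 CPM against 6.47, 7.43 and 11.9 CPM (log2 difference 4.82 ± 0.55 (SE), edgeR adjusted p = 1.35e-07), and LRWD1, which steadies the origin complex, 88.7 and 41.8 CPM against 0.761, 2 and 1.2 CPM (log2 difference 5.62 ± 0.62 (SE), edgeR adjusted p = 8.61e-08). PCNA, the sliding clamp, had 125 and 92.2 CPM against 801, 886 and 834 CPM (log2 difference -2.95 ± 0.27 (SE), edgeR adjusted p = 4.05e-09), and TOP2A was lower too (-3.09 ± 0.37 (SE)). Leaving out a library ended the call for MCM3 (1.27 without pool B), given as log2 differences.

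Writers and erasers of chromatin marks had a median of -0.05, and 25 of 90 genes tested (27.8%) were called higher in polysomes and 28 (31.1%) lower. The 3 core subunits of Polycomb repressive complex 2 were all called lower, EZH2 with 2.92 and 3.88 CPM in the pools and 98.8, 88.4 and 105 CPM in the transcriptomes (log2 difference -4.84 ± 0.84 (SE), edgeR adjusted p = 4.07e-05), EED with 0.139 and 1.85 CPM against 32.3, 24.5 and 28.2 CPM and SUZ12 with 1.75 and 0.0308 CPM against 26.1, 28 and 20.6 CPM. RBBP4 and RBBP7, histone chaperones that also serve this complex, had 80.9 and 94.2 CPM against 1165, 1097 and 900.4 CPM and 348 and 323 CPM against 2731, 2982 and 2593 CPM. None of these 5 genes had a pool above the lowest transcriptome. SUV39H1, which methylates histone H3 in heterochromatin, had 471 and 461 CPM against 13.1, 14.2 and 22.3 CPM (log2 difference 4.82 ± 0.44 (SE), edgeR adjusted p = 5.26e-09). TET3, which oxidizes 5-methylcytosine in the zygote, had 333 and 259.7 CPM against 10.3, 8.71 and 17.4 CPM (log2 difference 4.61 ± 0.86 (SE), edgeR adjusted p = 9.19e-05). The DNA methyltransferases differed, with DNMT3A (2.06) and DNMT3B (2.93) called higher and DNMT1 (-2.22) lower. UHRF1, which guides DNMT1, was higher with 1138 and 1389 CPM against 261, 284 and 326 CPM. With a library left out, the call was lost for DNMT3A (0.61 without pool B), given as log2 differences.

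Histone genes and their chaperones had a median of 1.22, and 16 of 38 genes tested (42.1%) were called higher in polysomes and 5 (13.2%) lower. In 18 genes of the histone clusters, 11 were called higher and 0 lower. H4 had 403 and 158 CPM against 43.1, 56.4 and 81.9 CPM (log2 difference 2.21 ± 0.48 (SE), edgeR adjusted p = 0.000531) and the linker histone H1-4 835 and 467 CPM against 157, 87.8 and 117 CPM (log2 difference 2.43 ± 0.47 (SE), edgeR adjusted p = 0.000136). Cluster histone mRNA normally ends in a stem-loop without a poly(A) tail, whereas these libraries start from poly(A), and near-identical copies make single histone genes uncertain. The variant genes H3F3A (-1.76) and H3F3B (-1.70), which code for a replacement histone H3 and carry poly(A) tails, were called lower. ATRX, which helps to place it, had 20.6 and 14.4 CPM against 479.7, 479 and 347 CPM (log2 difference -4.63 ± 0.46 (SE), edgeR adjusted p = 1.33e-08), and NASP was lower as well (-2.18 ± 0.30 (SE)). SLBP and SLBP2, which bind the stem-loop, were not called (-0.17 ± 0.27 (SE) and -0.14 ± 0.57 (SE)).

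Regulators of genome activation had a median of 0.00, and 10 of 45 genes tested (22.2%) were called higher in polysomes and 12 (26.7%) lower. SALL4 had 286 and 252 CPM in the pools and 42, 32.8 and 54.5 CPM in the transcriptomes (log2 difference 2.64 ± 0.42 (SE), edgeR adjusted p = 1.44e-05), and TRIM28, the partner of zinc finger repressors, 48.9 and 35.7 CPM against 12.2, 18.5 and 16 CPM (log2 difference 1.44 ± 0.30 (SE), edgeR adjusted p = 0.000364). NFYB, of the CCAAT-binding factor, had 12.2 and 9.72 CPM against 202, 209.7 and 175 CPM (log2 difference -4.16 ± 0.43 (SE), edgeR adjusted p = 3.01e-08). CTCF, the organizer of chromatin loops, had 5.87 and 15.6 CPM against 107, 108 and 110.1 CPM (log2 difference -3.34 ± 0.45 (SE), edgeR adjusted p = 1.58e-06). KLF17 had 0.834 and 4.52 CPM against 0.0761, 0.24 and 0 CPM and was called higher from few counts. POU5F1 had 41.2 and 52 CPM against 24.4, 27 and 26.2 CPM and was not called (log2 difference 0.85 ± 0.36 (SE), edgeR adjusted p = 0.0522). Among 296 zinc finger genes with ZNF, ZFP, ZKSCAN or ZSCAN symbols, 71 were called higher and 65 lower (median -0.04), with ZNF574 at 581 and 878 CPM against 23.5, 16.1 and 20.3 CPM and ZNF830 at 3.09 and 3.14 CPM against 73.2, 70.5 and 99.8 CPM. This list also holds the RNA-decay factors ZFP36, ZFP36L1 and ZFP36L2, which stand in the list of maternal RNA control too. For RNA polymerase II, its general factors and Mediator 27 of 90 genes tested (30%) were called higher in polysomes and 37 (41.1%) lower, with a median of -0.98. The polymerase subunit POLR2E had 681 and 744 CPM against 61.5, 56.9 and 59.6 CPM and the Mediator subunit MED4 29.8 and 40.0 CPM against 440.4, 383 and 363 CPM, at log2 differences of 3.58 ± 0.33 (SE) and -3.50 ± 0.26 (SE). The list also holds TAF1A, TAF1B and TAF1C, which are factors of RNA polymerase I, and of these TAF1C had 156 and 127 CPM against 2.05, 1.44 and 2.86 CPM, and GTF2B was lower (-2.68 ± 0.47 (SE)).

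Splicing and nuclear transport leaned below the transcriptome. For the spliceosome 11 of 73 genes tested (15.1%) were called higher in polysomes and 33 (45.2%) lower, with a median of -1.11. SF3B1, of the U2 particle, had 9.98 and 10.9 CPM in the pools and 229, 276 and 171 CPM in the transcriptomes (log2 difference -4.43 ± 0.30 (SE), edgeR adjusted p = 1.24e-10), and U2AF2, which binds beside it, 618 and 676 CPM against 80.7, 51.7 and 75.8 CPM (log2 difference 3.22 ± 0.44 (SE), edgeR adjusted p = 1.57e-06). PRPF19 was called higher (3.62 ± 0.47 (SE)) and its partner CDC5L lower (-2.46 ± 0.37 (SE)). For the nuclear pore and transport 15 of 60 genes tested (25%) were called higher in polysomes and 20 (33.3%) lower, with a median of -0.83. NUP62, of the central channel, had 232 and 393 CPM against 10.3, 13.2 and 20.7 CPM and NUP35 139 and 141 CPM against 1420, 1537 and 1192 CPM. KPNA7, the importin of oocytes, had 2561 and 2412 CPM against 2139, 1904 and 1968 CPM and was not called, while KPNA2 had 312 and 289 CPM against 1765, 1454 and 934 CPM and was called lower.

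Lysosomal genes had few members below. Among them 30 of 71 genes tested (42.2%) were called higher in polysomes and 7 (9.86%) lower, with a median of 1.18, and outside the proton pump 22 of 48 were called higher and 3 lower. CTSB, a lysosomal protease, had 2218 and 2303 CPM in the pools and 176, 149 and 197 CPM in the transcriptomes (log2 difference 3.70 ± 0.41 (SE), edgeR adjusted p = 6.91e-08), and PSAP, the precursor of the saposins, 354 and 281 CPM against 14.7, 9.59 and 17.1 CPM (log2 difference 4.52 ± 0.48 (SE), edgeR adjusted p = 3.88e-08). Of 23 proton pump genes, 8 were called higher and 4 lower, and their median of 0.31 turned to -0.02 under 1 other scaling. LAMP2, a protein of the lysosomal membrane, was lower with 125 and 117 CPM against 781, 785 and 678 CPM (log2 difference -2.63 ± 0.36 (SE), edgeR adjusted p = 1.45e-06). Genes of glycolysis and the citrate cycle gave a median of 0.97, and 17 of 37 genes tested (46%) were called higher in polysomes and 8 (21.6%) lower. ALDOA had 500.0 and 556 CPM against 43.6, 40.8 and 39.6 CPM (log2 difference 3.68 ± 0.35 (SE), edgeR adjusted p = 1.05e-08) and GAPDH 2196 and 1879 CPM against 502, 505 and 360.0 CPM (log2 difference 2.16 ± 0.40 (SE), edgeR adjusted p = 7.46e-05). LDHA, which makes lactate, had 594 and 638 CPM against 1995, 1796 and 1812 CPM (log2 difference -1.60 ± 0.40 (SE), edgeR adjusted p = 0.00198). The subunits of isocitrate dehydrogenase 3 parted, IDH3G at 3.29 ± 0.30 (SE) and IDH3A at -2.58 ± 0.34 (SE).

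For the endoplasmic reticulum and secretory pathway 13 of 50 genes tested (26%) were called higher in polysomes and 15 (30%) lower, with a median of -0.38. COPE, of the COPI coat, had 3527 and 3078 CPM in the pools and 114, 107 and 122 CPM in the transcriptomes (log2 difference 4.85 ± 0.22 (SE), edgeR adjusted p = 3.68e-13), the smallest p-value of any gene named here. SEC63, of the translocation channel, had 5.37 and 10.7 CPM against 121, 139 and 112 CPM (log2 difference -3.95 ± 0.41 (SE), edgeR adjusted p = 3.12e-08). TMED9 was called higher (3.62 ± 0.33 (SE)) and SPCS2, of the signal peptidase, lower (-3.69 ± 0.39 (SE)). For RAB and ARF GTPases 23 of 78 genes tested (29.5%) were called higher in polysomes and 22 (28.2%) lower, with a median of -0.07. RAB40C had 185 and 184 CPM against 8.98, 9.91 and 10.2 CPM and RAB1A, which serves transport to the Golgi, 26.4 and 36.8 CPM against 222, 208 and 188 CPM. For antioxidant enzymes 11 of 37 genes tested (29.7%) were called higher in polysomes and 9 (24.3%) lower, with a median of -0.14. PRDX2 had 7140 and 6571 CPM against 1554, 1351 and 1222 CPM (log2 difference 2.32 ± 0.30 (SE), edgeR adjusted p = 8e-07), while PRDX1, of the same family, had 882 and 821 CPM against 1336, 980.5 and 909.7 CPM and was not called.

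To see where in the gradient these differences lay, the free fractions (F1 and F2) and the monosome fractions (F3 to F5) were pooled in the same way and compared with the same 3 transcriptomes, in 1 model of 54 libraries and 15387 genes. These comparisons share the transcriptomes, and their values are given side by side only. In that model, 2892 genes (18.8%) were called higher and 2711 (17.6%) lower in polysomes, 2326 (15.1%) and 1953 (12.7%) in monosomes, and 2639 (17.2%) and 2197 (14.3%) in the free fractions. Median absolute log2 differences were 2.07 for polysomes, 1.70 for monosomes and 1.85 for the free fractions. The gradient libraries thus stood apart from the transcriptomes in each part of the gradient and not in the polysomes alone. Direct comparison of polysomes with monosomes called 14 genes higher (0.091%) and 12 lower (0.078%), with 1374 genes at an unadjusted p below 0.05, and the median absolute log2 difference was 0.68. Gradient A and gradient B each gave both pools, and with the gradient as a block 13 genes were called higher and 0 lower by edgeR (796 at an unadjusted p below 0.05). What, besides ribosomes, sets gradient libraries apart from whole embryos was not tested.

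The groups differed in how far the 3 parts of the gradient went together. Medians for kinetochore and spindle genes were -2.00 in polysomes, -1.83 in monosomes and -1.99 in the free fractions, and those for lysosomal genes 0.78, 0.88 and 0.77. In both groups the medians of the 3 parts lay close together. Nuclear OXPHOS genes had 0.70 in polysomes, 0.05 in monosomes and 1.41 in the free fractions. Cytosolic ribosomal proteins had 0.05, -0.13 and 1.76, and genes of the histone clusters 1.50, 0.01 and 2.43. These 3 groups were lowest in monosomes and highest in the free fractions. The subcortical maternal complex had 1.53, 0.55 and 1.47. Genes of glycolysis and the citrate cycle were highest in monosomes, with 0.55, 1.42 and 0.97, as were the tRNA synthetases, with -0.17, 0.95 and -0.10.

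**Figure D4:**
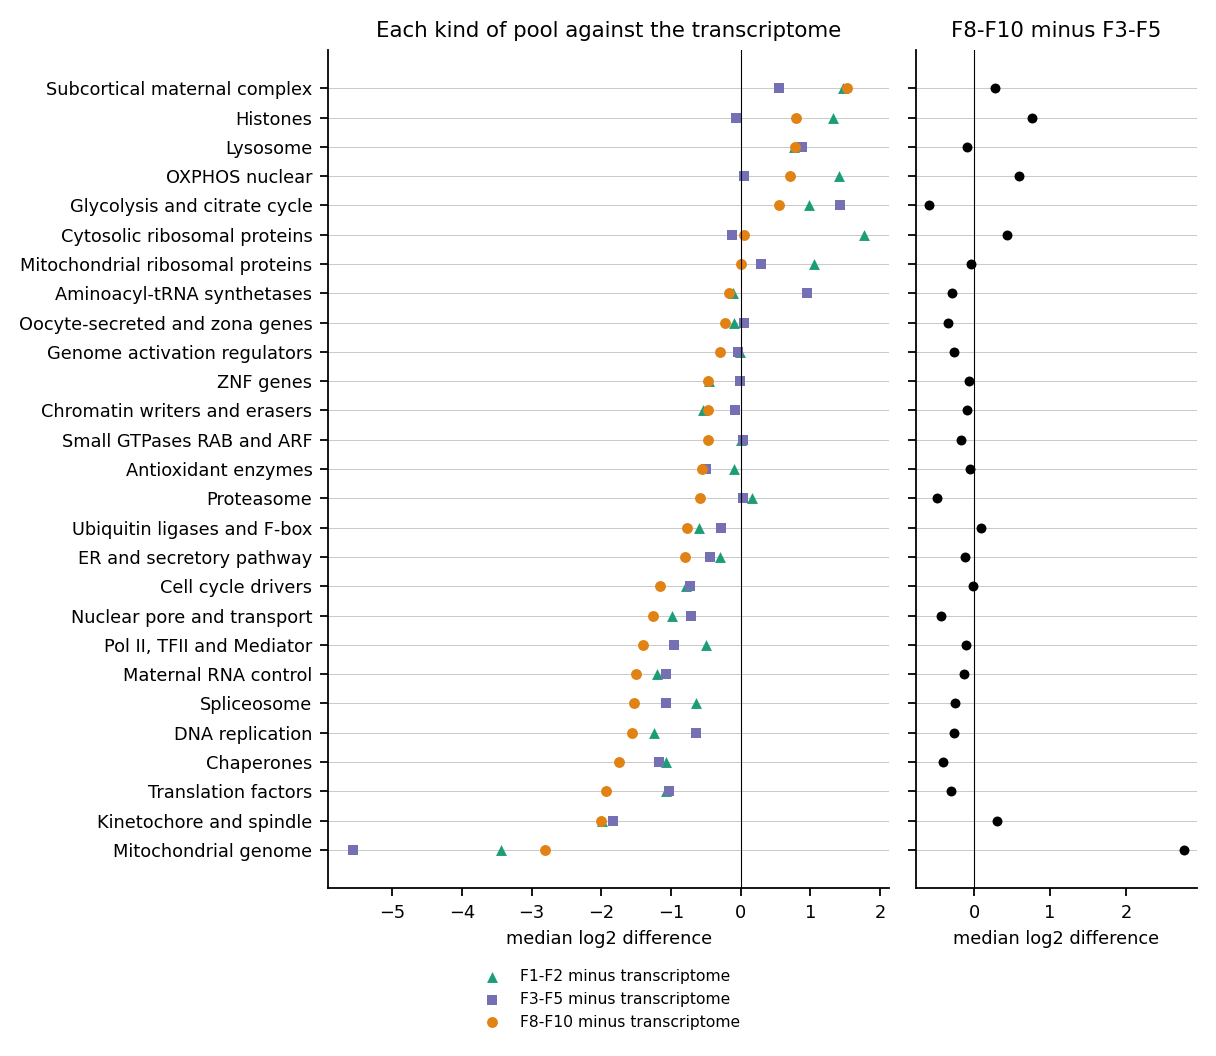
Median log2 difference from the transcriptome (left, x axis) of 27 functional groups (y axis) in pools of F1 and F2 (green triangles), F3 to F5 (purple squares) and F8 to F10 (orange circles), from 1 model of 54 libraries, and the median log2 difference of F8 to F10 from F3 to F5 (right). Groups of cell division, splicing and translation factors lie below 0 in all 3 kinds of pool, and the mitochondrial genome has the widest gap between polysomes and monosomes, at 2.76.

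Direct comparison of polysomes with monosomes singled out the mitochondrial genome. Of its 13 genes, 8 were among the 14 called higher in polysomes, and all 13 had an unadjusted p below 0.05. ND5 had 120.2 and 102 CPM in the polysome pools, 11.2 and 9.16 CPM in the monosome pools and 424, 451 and 370.0 CPM in the transcriptomes, all scaled in the model of 54 libraries (log2 difference 3.45 ± 0.52 (SE), edgeR adjusted p = 0.00128). Its mRNA was thus lowest in monosomes and highest in whole embryos, with polysomes in between. By fraction, the group's median log2(CPM + 1) lay -5.89 from the transcriptome in F4, -4.50 in F8, -3.43 in F9 and -1.76 in F10, so that within the polysome pool its level was highest in F10. The other 6 genes called higher were IFITM1, IFITM3, CENPF, UPF2, CSTB and TOMM6. IFITM1, an antiviral membrane protein, had 8.24 and 8.3 CPM in the polysome pools, 0.515 and 0.459 CPM in the monosome pools (log2 difference 4.07 ± 0.88 (SE), edgeR adjusted p = 0.0303), and IFITM3 had 7.13 and 4.7 CPM in the polysome pools, 0.154 and 0.714 CPM in the monosome pools. CENPF had 159 and 116 CPM in the polysome pools, 35.8 and 23.9 CPM in the monosome pools (log2 difference 2.20 ± 0.46 (SE), edgeR adjusted p = 0.0244), although its polysome level was far below the transcriptome.

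The 12 genes called higher in monosomes were CAPN5, FAM32A, RTF2, NONO, NOP56, PLIN2, PA2G4, CCT3, KARS1, ARL6IP1, DRG1 and MAT2A. PLIN2, which coats lipid droplets, had 392 and 358 CPM in the polysome pools, 1587 and 1332 CPM in the monosome pools (log2 difference -1.96 ± 0.38 (SE), edgeR adjusted p = 0.0128). NOP56, of the particles that methylate ribosomal RNA, had 97.7 and 152 CPM in the polysome pools, 604 and 408 CPM in the monosome pools (log2 difference -2.02 ± 0.42 (SE), edgeR adjusted p = 0.0234). CCT3, of the chaperonin, had 348 and 344 CPM in the polysome pools, 1230 and 1252 CPM in the monosome pools, and KARS1, the synthetase for lysine, 48.5 and 40.4 CPM in the polysome pools, 181 and 128 CPM in the monosome pools. In these 4 genes the monosome pools were also above the free pools of the same gradient. The genes given here with values were chosen after their values were seen. The 26 are all that passed, and without gradient A or gradient B 0 genes were called by edgeR (535 and 628 at an unadjusted p below 0.05).

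**Figure D5:**
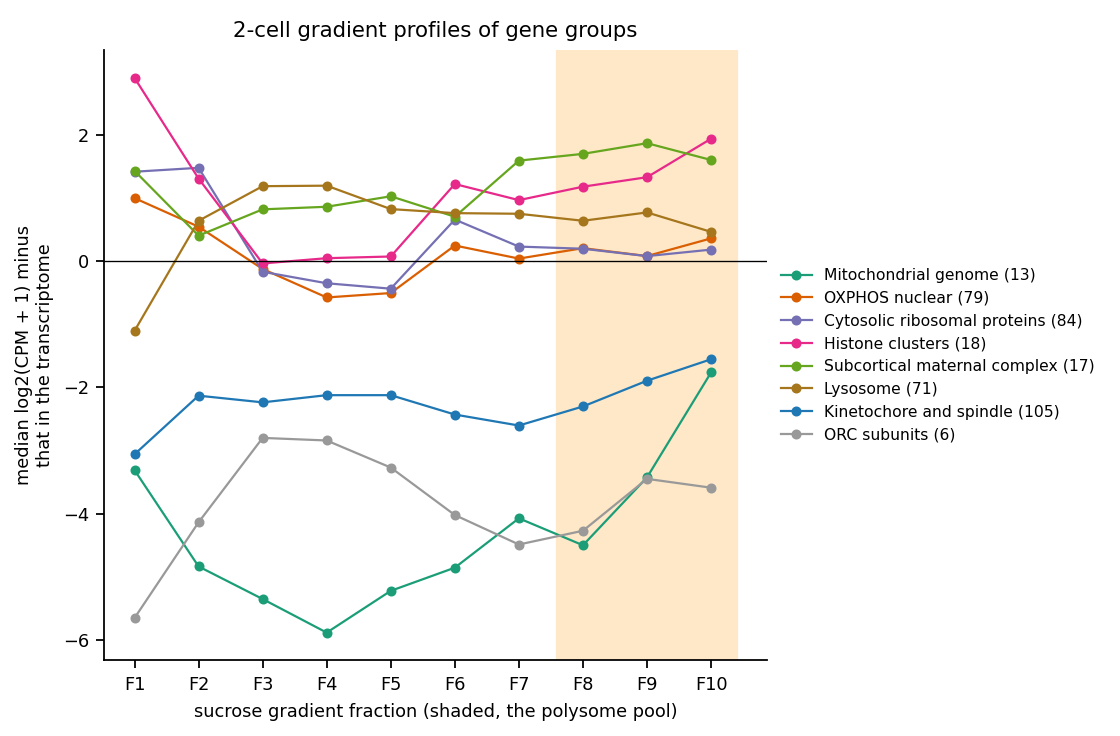
Median log2(CPM + 1) of 8 gene groups in each gradient fraction, mean of 2 gradients, minus the same in the transcriptome (y axis), along fractions F1 to F10 (x axis), with the polysome pool shaded and the number of genes in brackets. The mitochondrial genome climbs from -4.50 in F8 to -1.76 in F10, while kinetochore and spindle genes stay between -3.06 and -1.56 throughout.

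The same difference between polysomes and transcriptome was compared with that of MII oocytes, the stage before, in 1 model of 30 libraries. Both differences were made from separate libraries. The test of the difference between them called 106 genes (0.725%) with a higher and 158 (1.08%) with a lower value at the 2-cell stage, and 2103 genes had an unadjusted p below 0.05. These counts were 0 and 0 with the replicate letter as a block (738 genes at an unadjusted p below 0.05 by edgeR), 44 to 63 and 40 to 109 without 1 of the 2-cell libraries, and 369 and 444 by DESeq2. IFITM1 had 9.48 and 9.63 CPM in 2-cell pools and 0.304, 0.32 and 0.376 CPM in 2-cell transcriptomes, but 27.6 and 62.5 CPM in the MII pools and 26.8, 87.8 and 43.9 CPM in the MII transcriptomes, a difference of differences of 5.04 ± 0.82 (SE, edgeR adjusted p = 0.00323). IFITM3 showed the same arrangement at 4.86 ± 0.73 (SE, edgeR adjusted p = 0.00164), as did ARAF, a kinase that relays growth signals, at 5.05 ± 0.55 (SE, edgeR adjusted p = 3.13e-05). In all 3, polysome pools lay near the transcriptomes in MII oocytes and far above them at the 2-cell stage. IFITM3 had 8.2 and 5.45 CPM in 2-cell pools and 0.38, 0.0799 and 0.451 CPM in 2-cell transcriptomes. In its MII pools it had 46.2 and 132.9 CPM. Both IFITM genes thus had few counts in the 2-cell transcriptomes, where 3 counts are 0.226 to 0.24 CPM. Their polysome levels were also lower at the 2-cell stage than in MII oocytes. MEAK7 stood above the transcriptome at both stages, but less far at the 2-cell stage, with 166 and 201 CPM in the pools and 4.26, 5.12 and 6.09 CPM in the transcriptomes at that stage and 490.2 and 349 CPM in the MII pools and 0.344, 0.912 and 0.595 CPM in the MII transcriptomes (-4.23 ± 0.98 (SE, edgeR adjusted p = 0.0266)). Group medians at the 2-cell and the MII stage lay side by side at 1.12 and 1.62 for nuclear OXPHOS genes, -2.39 and -3.20 for the mitochondrial genome, -1.58 and -1.69 for kinetochore and spindle genes and 1.95 and 2.90 for the subcortical maternal complex. The group with the most calls was the mitochondrial ribosomal proteins, with 6 of 79 genes lower at the 2-cell stage and 0 higher.

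Against 8-cell embryos, the stage after, 1272 genes (8.71%) had a higher and 503 (3.44%) a lower difference at the 2-cell stage, with 3924 genes at an unadjusted p below 0.05. Among the 296 zinc finger genes, 43 were called higher and 5 lower, and the median of the group was -0.04 at the 2-cell and -0.94 at the 8-cell stage. Among 37 genes of glycolysis and the citrate cycle, 11 were called higher and 0 lower, with medians of 0.97 and -0.20. Nuclear OXPHOS genes gave 8 higher and 0 lower of 79, with medians of 1.12 and -0.04, and lysosomal genes 8 and 0 of 71, with 1.18 and 0.09. The shares called higher in these 2 groups lay near the 8.71% of all genes. The median over all genes also fell, from 0.18 at the 2-cell to -0.265 at the 8-cell stage. Kinetochore and spindle genes gave 4 higher and 13 lower of 105, with -1.58 and -1.09. The subcortical maternal complex gave 0 higher and 2 lower of 17, with 1.95 and 3.67. TIA1, an RNA-binding protein of stress granules, had 1.17 and 1.17 CPM in the pools and 0.532, 0.879 and 0.0752 CPM in the transcriptomes at the 2-cell stage, against 0 and 0 CPM in the 8-cell pools and 51.6, 18.1 and 22 CPM in the 8-cell transcriptomes. Its 8-cell polysome level was therefore at least 299-fold lower than the transcriptome, set against 3 counts per pool. WBP1 had 50.9 and 47 CPM in the 8-cell pools and 8.23, 2.96 and 3.91 CPM in the 8-cell transcriptomes. At the 2-cell stage it was at 0 in both pools and at or below 3 counts in the transcriptomes. No 2-cell difference could thus be measured for it, although the test called it lower there. With the replicate letter as a block the test called 17 and 3 genes in all, and without 1 of the 2-cell libraries 884 to 982 and 275 to 362.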

How the data were processed

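RNA-seq was analysed in 138 libraries of bovine oocytes and embryos. Per the labels and the study's methods, reads were quantified with Salmon, and the deposited table holds the authors' expected counts for 16706 gene symbols, of which 11.7% were not whole numbers. The labels name the genome build UMD3.1 and the methods another, so no coordinates were used. All columns matched a sample by title. Here, the 3 polysome fractions of a gradient were added up and rounded. Main tests used edgeR 4.0.16 (TMM, filterByExpr, quasi-likelihood F test) on 12 polysome pools and 18 transcriptomes of 6 stages, which share 1 estimate of the spread. A gene was called at a Benjamini-Hochberg adjusted p below 0.05 over all genes and a fold change above 2. Each SE is the absolute log2 difference divided by the square root of its F statistic, not a separate estimate from the libraries. Free (F1 and F2) and monosome (F3 to F5) pools entered a model of 54 libraries. CPM values use the TMM scaling of their model, except that single fractions and marker sums use TMM among the 23 2-cell libraries. The 2-cell comparisons with MII and 8-cell differences are interaction terms.

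The replicates are pools of embryos told apart by letter in the labels. Per the methods, transcriptome pools came from the batches used for the gradients, with no link given between letters and batches. Polysome and monosome pools of 1 gradient come from the same lysate, so their blocked fit stands beside the main one. They deviated together only weakly at the 2-cell stage (r = 0.134). None of 253 pairs of 2-cell libraries had identical counts. Alternatives were the likelihood ratio test, DESeq2 1.42.0, RLE scaling, library totals, no filter, other pools, thinning, the block and leaving out each library. The scripts were tested on simulated data, with a spread set in advance and 200 genes changed 4-fold in 2-cell polysomes. The test called 103 of them between polysomes and transcriptome, with 4 false calls. In the comparisons with MII oocytes and 8-cell embryos it called 11 and 2 of them, with 0 false calls. The simulated spread was not taken from the data, so that these shares do not carry over to them. Fewer calls in these comparisons than between polysomes and transcriptome do not show that the stages are alike. Members and gene lists were chosen with earlier results of these data known. Named genes were, in each direction, the 8 called genes with the largest fold change with no overlap between groups and a mean of at least 20 CPM in the higher group, in each list the 2 smallest adjusted p-values in each direction and the 2 highest levels, any member of the lists on oocyte genes, maternal RNA, cell cycle, replication, genome activation, histones and chromatin, and the 5 largest interactions in each direction. Sequences, GC content and transcript length were not analysed here.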

Additional observations from a re-analysis of the deposited data

Results flagged for a closer look

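The difference between polysomes and transcriptome was not the same at the 2-cell stage and in MII oocytes for the 10 genes with the largest such contrasts that passed the test of the interaction (edgeR, adjusted p below 0.05). Values are differences of log2 differences, the 2-cell stage minus the other stage. Higher at the 2-cell stage were RARRES2 (7.50), ARAF (5.05), IFITM1 (5.04), IFITM3 (4.86) and SLCO4C1 (3.92). RARRES2 had 0, 0 and 0.0752 CPM in the 2-cell transcriptomes, below 3 counts in each, so that its size depends on the prior count. IFITM1 and IFITM3 also had few counts in these transcriptomes. SLCO4C1, an organic anion transporter, had 44 and 41.7 CPM in 2-cell pools and 38.5, 35.3 and 33.8 CPM in 2-cell transcriptomes, but 4.86 and 6.65 CPM in the MII pools and 62.4, 64.2 and 93 CPM in the MII transcriptomes. Lower at the 2-cell stage were WDR35 (-5.68), SAMD15 (-5.15), MTG2 (-4.96), RPUSD1 (-4.64) and MEAK7 (-4.23). MTG2 and RPUSD1 stood above the transcriptome at both stages, RPUSD1 with 53.9 and 61.8 CPM in 2-cell pools and 2.59, 4.08 and 4.96 CPM in 2-cell transcriptomes and 58.7 and 54.9 CPM in the MII pools and 0.115, 0.304 and 0 CPM in the MII transcriptomes. MTG2 had 0, 0.101 and 0.119 CPM in the MII transcriptomes. Both genes thus had few or no counts there, so that the size of their contrast depends on the prior count. WDR35 stood below it, with 0.167 and 0.4 CPM in 2-cell pools and 75.3, 55.6 and 35.9 CPM in 2-cell transcriptomes and 5.69 and 21.8 CPM in the MII pools and 38.4, 54.9 and 62.1 CPM in the MII transcriptomes. Leaving out 1 of the 5 2-cell libraries ended the call in at least 1 case for MEAK7 (-4.38 to -4.09), RARRES2 (7.02 to 9.74), SAMD15 (-6.45 to -4.50), SLCO4C1 (3.88 to 3.98), WDR35 (-6.41 to -5.19), and in none for ARAF, IFITM1, IFITM3, MTG2, RPUSD1.

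Against the 8-cell stage, 10 further genes passed the test of the interaction, each of them at 0 in both pools of 1 of the 2 stages. Higher at the 2-cell stage were TIA1 (13.34), COL12A1 (12.82), HSD17B7 (12.62), DAPP1 (12.13) and FLRT3 (11.98). All 5 were at 0 in both 8-cell pools, so that the fitted size depends on the prior count, and against 3 counts per pool they were at least 259-fold (FLRT3), 279-fold (DAPP1), 288-fold (COL12A1), 299-fold (TIA1) and 349.5-fold (HSD17B7) lower in 8-cell polysomes than in the 8-cell transcriptome. HSD17B7, an enzyme of cholesterol synthesis, had 0 and 1.78 CPM in 2-cell pools and 0.38, 1.28 and 0.526 CPM in 2-cell transcriptomes, and 0 and 0 CPM in the 8-cell pools and 40.3, 41 and 25.8 CPM in the 8-cell transcriptomes. COL12A1 had 0 and 0.369 CPM in 2-cell pools and 0, 0.32 and 0 CPM in 2-cell transcriptomes. DAPP1 had 0.667 and 0 CPM against 0.532, 0.4 and 0 CPM there. The 2-cell difference of these 2 genes thus rests on few counts. The 2-cell pools of FLRT3 lay far apart, at 10.95 and 0.0308 CPM. At the 2-cell stage itself, none of the 5 genes was called. Lower at the 2-cell stage were CFAP157 (-9.14), RET (-8.19), CLCN2 (-7.87), WBP1 (-7.81) and TEF (-7.47). These 5 were at 0 in both 2-cell pools and at few or no counts in the 2-cell transcriptomes, under 1 CPM. They passed the filter on low counts through libraries of other stages, and the fitted sizes depend on the prior count. Their 2-cell difference could thus not be measured, nor how it differed from that at the 8-cell stage. WBP1 was nonetheless called lower at the 2-cell stage (log2 difference -4.53, edgeR adjusted p = 0.0129), a call that rests on these few counts. RET, a receptor tyrosine kinase, had 34.7 and 24.3 CPM in the 8-cell pools and 1.2, 2.87 and 0.696 CPM in the 8-cell transcriptomes. Leaving out 1 of the 5 2-cell libraries ended the call in at least 1 case for CFAP157 (-8.28), CLCN2 (-8.06 to -7.47), COL12A1 (8.04), DAPP1 (6.49), FLRT3 (4.74), HSD17B7 (5.60), RET (-8.15 to -4.21), TEF (-7.44 to -5.22), and in none for TIA1, WBP1.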

How the results depend on the processing

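With the replicate letter as a block, 2639 genes were called higher and 1868 lower in polysomes than in the transcriptome, and 2635 and 1863 of these were among the 4166 and 3112. Pools and transcriptomes with the same letter did not deviate together (r = 0.010 at the 2-cell stage and -0.065 to -0.006 at others). Polysome and monosome pools of 1 gradient, which share a lysate, reached only r = 0.134 at the 2-cell stage. This measure therefore cannot tell whether the letters mark shared batches. Calls ran from 3488 to 4614 higher and from 3009 to 3884 lower under the likelihood ratio test, DESeq2, other scalings, no filter on low counts, F9 and F10 alone, fractions scaled to a common total, thinned pools and a model of the 2-cell libraries alone. In the model of 54 libraries, chosen after seeing the data, they were 2892 and 2711. Leaving out 1 library gave 3496 to 3718 higher and 2383 to 2910 lower. The likelihood ratio test called 328 and 362 genes and DESeq2 369 and 444 in the comparison with MII oocytes, against 106 and 158, with library totals the split was 75 and 176, with no filter on low counts 81 and 224, with the block 0 and 0 (738 genes at an unadjusted p below 0.05 by edgeR), and without 1 library 44 to 63 and 40 to 109. For the 8-cell stage they called 1837 and 812, and 1857 and 782, against 1272 and 503, with the block 17 and 3, and without 1 library 884 to 982 and 275 to 362. Polysomes against monosomes gave 28 and 84 by the likelihood ratio test, 15 and 8 with library totals, 16 and 8 with no filter, 13 and 0 with the gradient as a block, and 0 and 0 without either gradient. Of calls lower than the transcriptome, 920 (without gradient A) and 822 (without gradient B) were left for monosomes and 968 and 1056 for the free fractions, against 1953 and 2197, and with the block they were 1408 and 1581. In each setting that leaves a group with 1 library, this library was assumed to vary like the other groups. The cause of these changes was not tested, apart from the smaller number of libraries in the last.

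Of 244 single genes, 22 lost their call under at least 1 alternative: under 1 COX3, DHX34, ND5, ORC2, PABPC1L, TRIM28 and UHRF1, under 2 BUB1B, CNOT11, DNMT3A, OOSP2, WEE2 and ZAR1, under 3 COX7A2L and WBP1, under 4 AURKA and MCM3, under 5 LHX8, under 7 BTG4, NLRP14 and ZP2, under 12 SEC13. A call was gained under at least 1 alternative by 9 others, CCNB2, CCT3, CLCN2, FIGLA, KHDC3L, NPM2, RET, SNRPF and ZNF226, in NPM2 under 4. The direction turned in FLRT3 without 2-cell polysome replicate A (-7.11) and in HSD17B7 without replicate B (-6.69), where both passed the test in the other direction, against 1.07 and 1.28 without the other pool. Of the 20 interactions above, all 10 against MII oocytes and 9 of 10 against the 8-cell stage lost the call with the block. Depth limits the genes at few counts in a pool, whose folds depend on the prior count.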
